A study of Mus musculus with 12 samples.

Results

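The guanylate-binding proteins are a family of large GTPases, and the rows Gbp2, Gbp2b, Gbp3, Gbp4, Gbp5, Gbp6, Gbp7, Gbp8 and Gbp9 were taken by name from a table of raw read counts. All 9 were present among its 26742 genes. The family was selected on the read counts of these same libraries, with earlier results in view, so its levels and its differences between groups are given as description, with no p-value for a member. Of the 9 genes, 8 passed the filter on low counts, together with 16627 genes in all. Gbp6 did not. A further family row, Gbp10, is no member and also stayed below the filter, with 0 to 22 reads per library.

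The RNA came from mouse embryonic stem cells, all labelled male, of the inbred backgrounds B6J and 129, kept in serum with LIF, the cytokine that sustains self-renewal. Each day up to day 5 the cultures were given either 1 µM PD 0325901, an inhibitor of the kinase MEK (called iMEK in the labels), or DMSO, its solvent. Polyadenylated RNA was sequenced in 3 libraries for each of 4 groups: inhibitor-treated B6J, DMSO-treated B6J, inhibitor-treated 129 and DMSO-treated 129 cells. Each background is given in the labels as a single genotype without a clone name. Strain and clone therefore cannot be told apart. Whether libraries of a group were grown as independent cultures is also not stated.

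Guanylate-binding proteins belong to the dynamin superfamily and are among the genes most strongly induced by interferon gamma. Their promoters are known to respond through gamma-activated sites (GAS) and through interferon-stimulated response elements (ISRE), which the factor IRF1 binds. The proteins assemble on the membranes of vacuoles that hold bacteria or parasites, and on freed bacteria, and help to break them open and to start inflammasome signalling. Embryonic stem cells are known for a weak response to interferon, and inbred mouse strains are known to differ in how strongly Gbp2b, once named Gbp1, is induced.

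In the GRCm38 annotation, 5 members lie within 144 kb on the plus strand of chromosome 3, in the order Gbp5, Gbp7, Gbp3, Gbp2b and Gbp2, from position 142493978 to 142638008. The other 4 lie within 280 kb on the minus strand of chromosome 5, by lowest coordinate in the order Gbp8, Gbp9, Gbp4 and Gbp6, from position 105014150 to 105293698. The annotated spans of Gbp8, Gbp9 and Gbp4 overlap, with upper ends at 105139540, 105139539 and 105139586. Of their exon bases, 1.8%, 1.2% and 0.8% lie in exons of the others. RefSeq promoter sequences of build GRCm38.p6, which run from 250 bases before a start site to 50 after it, were matched for the 5 members on chromosome 3, with a pair of start sites for Gbp3. The capitals in the sequences mark matches to the letters of an ISRE, GAAA repeated after a gap of any 2 bases. On the strand shown each match reads as TTTC repeated after such a gap. The promoters of Gbp2b (chr3:142594597-142594896) and Gbp2 (chr3:142620413-142620712) are shown whole because these neighbouring genes carried most of the family's reads in DMSO-treated 129 cells, while Gbp2b had none in B6J. The short stretches around the same element in Gbp3 (chr3:142559984-142560029), Gbp7 (chr3:142530268-142530307) and Gbp5 (chr3:142496754-142496793) are shown for comparison.
Gbp2b promoter: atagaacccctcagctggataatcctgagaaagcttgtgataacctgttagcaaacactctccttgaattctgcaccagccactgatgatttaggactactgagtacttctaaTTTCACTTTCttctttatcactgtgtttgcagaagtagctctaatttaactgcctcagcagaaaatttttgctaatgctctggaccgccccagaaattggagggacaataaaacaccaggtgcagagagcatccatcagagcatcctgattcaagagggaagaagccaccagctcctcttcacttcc
Gbp2 promoter: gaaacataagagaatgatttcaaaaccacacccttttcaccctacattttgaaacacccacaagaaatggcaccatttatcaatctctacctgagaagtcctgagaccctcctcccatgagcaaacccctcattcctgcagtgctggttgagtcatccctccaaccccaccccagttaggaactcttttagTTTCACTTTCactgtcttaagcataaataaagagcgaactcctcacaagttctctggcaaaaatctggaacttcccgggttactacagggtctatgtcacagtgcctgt
Gbp3 stretch: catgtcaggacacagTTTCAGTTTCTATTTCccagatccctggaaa
Gbp7 stretch: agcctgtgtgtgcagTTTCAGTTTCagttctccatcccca
Gbp5 stretch: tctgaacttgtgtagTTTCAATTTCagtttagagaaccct
All 5 genes held at least 1 ISRE match in a promoter window, against 3.44% of the 32851 RefSeq promoters searched on both strands. The matched letters in Gbp2b and Gbp2 were the same, 127 and 49 bases before the start site. Gbp3 held 2 overlapping matches before its first start site and none before its second. GAS letters, TTCNNNGAA on both strands, occurred in 8.3% of all promoters, and were found at 2 places each in the Gbp7 and Gbp5 windows and in none of the windows of Gbp3, Gbp2b and Gbp2. These are matches of letters in the C57BL/6J reference genome, and the 129 sequence was not analysed here.

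The files total 81310810 to 96341637 counted reads per library in inhibitor-treated B6J cells and 74164171 to 82505523 in DMSO-treated B6J cells. The totals were 65564142 to 82701438 in inhibitor-treated 129 cells and 62634533 to 73031809 in DMSO-treated 129 cells. As a check of the treatment, Egr1, a target of the kinase ERK below MEK, averaged 9.84 ± 1.37 counts per 1000000 reads (CPM) in inhibitor-treated B6J cells against 149 ± 7.78 in DMSO-treated B6J cells, and 8.19 ± 1.87 in inhibitor-treated 129 cells against 261 ± 63.0 in DMSO-treated 129 cells (SD, n = 3). All 8 embryonic stem cell markers were detected in every library. DMSO-treated 129 replicate 1 stood apart, with a summed level of 523.5 CPM over 8 primitive endoderm markers where the other 2 libraries of its group had 44.1 and 45.4. Fibroblast markers were abundant although the labels name no feeder cells: 20 of them summed to 10030 to 15610 CPM in inhibitor-treated B6J and 7539 to 8402 in DMSO-treated B6J libraries, and to 10130 to 14480 in inhibitor-treated 129 and 5368 to 9855 in DMSO-treated 129 libraries. In these bulk samples, fewer cells that express a gene and less of its RNA per cell cannot be told apart.

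The family was expressed chiefly in DMSO-treated 129 cells. The summed level of the 9 genes was 7.80 ± 0.487 CPM in inhibitor-treated B6J cells, 44.3 ± 9.92 CPM in DMSO-treated B6J cells, 27.9 ± 11.1 CPM in inhibitor-treated 129 cells and 344 ± 97.9 CPM in DMSO-treated 129 cells (SD, n = 3 each). No library of DMSO-treated 129 cells overlapped with any other group. Gbp2 and Gbp2b together made up 39.9 to 55.7% of this sum in inhibitor-treated B6J libraries and 87.7 to 90.6% in DMSO-treated B6J libraries. They made up 48.8 to 70.4% in inhibitor-treated 129 libraries and 86.1 to 90.0% in DMSO-treated 129 libraries. In B6J all of that share was Gbp2. DMSO-treated 129 replicate 1, the library with the primitive endoderm markers, had a family sum of 231.9 CPM where the other 2 of its group had 411.5 and 389.5 CPM. The part of those markers in the spread was not tested.

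**Figure D1:**
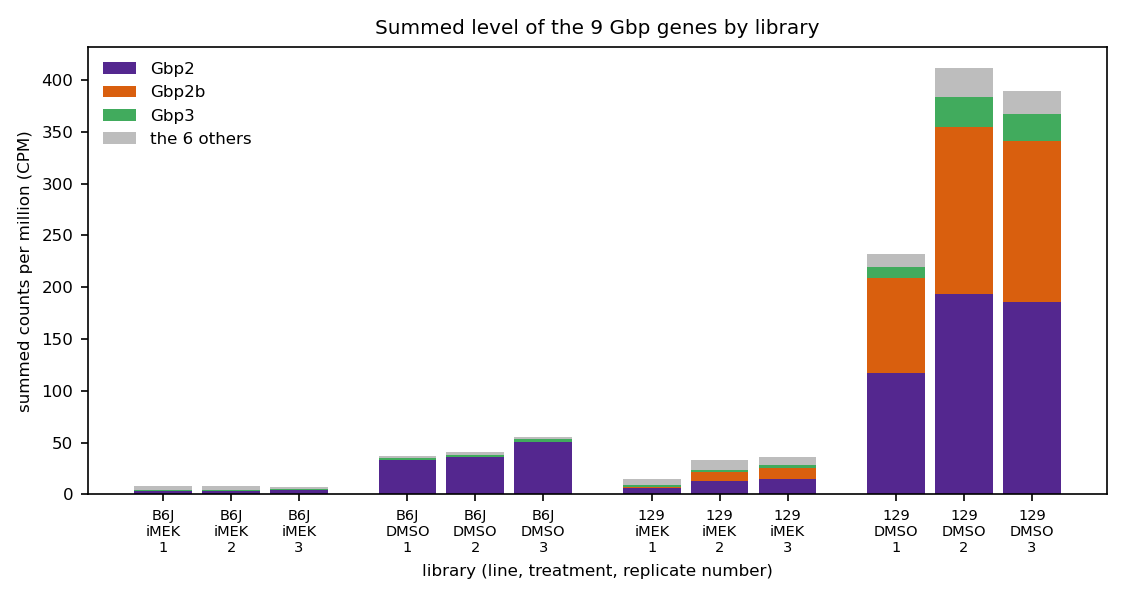
Stacked bars give the summed CPM of the 9 genes in each of the 12 libraries, split into Gbp2, Gbp2b, Gbp3 and the 6 others. DMSO-treated 129 libraries reach 231.9 to 411.5 CPM and inhibitor-treated B6J libraries 7.30 to 8.28 CPM, and no orange Gbp2b segment appears in any B6J bar.

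Gbp2, which in mice coats vacuoles of Toxoplasma and releases bacterial DNA to the sensor AIM2, was lower with the inhibitor in both lines. It had 3.59, 3.13 and 4.07 CPM in inhibitor-treated B6J cells against 33.3, 35.6 and 50.02 CPM in DMSO-treated B6J cells. In 129 it had 5.98, 12.9 and 15.02 CPM with the inhibitor against 118, 193 and 186 CPM with DMSO. No inhibitor-treated library reached the lowest DMSO library of its line. The log2 fold change, inhibitor over DMSO, was -3.46 (SE 0.33) in B6J and -3.87 (SE 0.33) in 129, and the difference of these responses, B6J minus 129, was 0.41 (SE 0.43). Every B6J library was also below every 129 library of the same treatment, by 1.65 (SE 0.31) on the log2 scale with the inhibitor and by 2.06 (SE 0.30) with DMSO.

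Gbp2b, the neighbour of Gbp2 and a mediator of the same vacuole attack, had 0 reads in all 6 B6J libraries. In 129 it had 1.41, 8.27 and 10.1 CPM with the inhibitor, from 102, 548 and 836 reads, against 91.2, 161 and 156 CPM with DMSO, from 6643, 11499 and 9996 reads. The 129 groups did not overlap, and their log2 fold change was -4.36 (SE 0.66). Against a floor of 3 reads over the 3 libraries of a group, the mean of Gbp2b was at least 564-fold lower in inhibitor-treated B6J than in inhibitor-treated 129 cells. With DMSO it was at least 10700-fold lower in B6J than in 129 cells. These bounds use the 129 group means and treat each read as independent. The inhibitor-treated 129 mean was 6.60 CPM, well above the 1.41 CPM of its replicate 1, for which the bound would be lower. A response in B6J cannot be given. Only 1.8% of the 50-base words of its exons recur in another gene, all of these in Gbp2, so the zeros concern sequence that is nearly all its own in the reference. Whether reads of the 129 allele were assigned the same way as reads of the B6J allele was not tested.

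Per kilobase of exon, Gbp2 was the higher of the pair in every library. The ratio of Gbp2b to Gbp2 on that scale was 0.210, 0.573 and 0.601 in inhibitor-treated 129 libraries and 0.691, 0.742 and 0.749 in DMSO-treated 129 libraries. The groups did not overlap, and replicate 1 with the inhibitor was well below the other libraries. Gbp2b averaged 2.34 CPM per kb in inhibitor-treated 129 cells and 48.2 CPM per kb in DMSO-treated 129 cells. Gbp2 averaged 1.43, 15.8, 4.49 and 65.8 CPM per kb in the 4 groups, in the order inhibitor-treated B6J, DMSO-treated B6J, inhibitor-treated 129 and DMSO-treated 129.

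**Figure D2:**
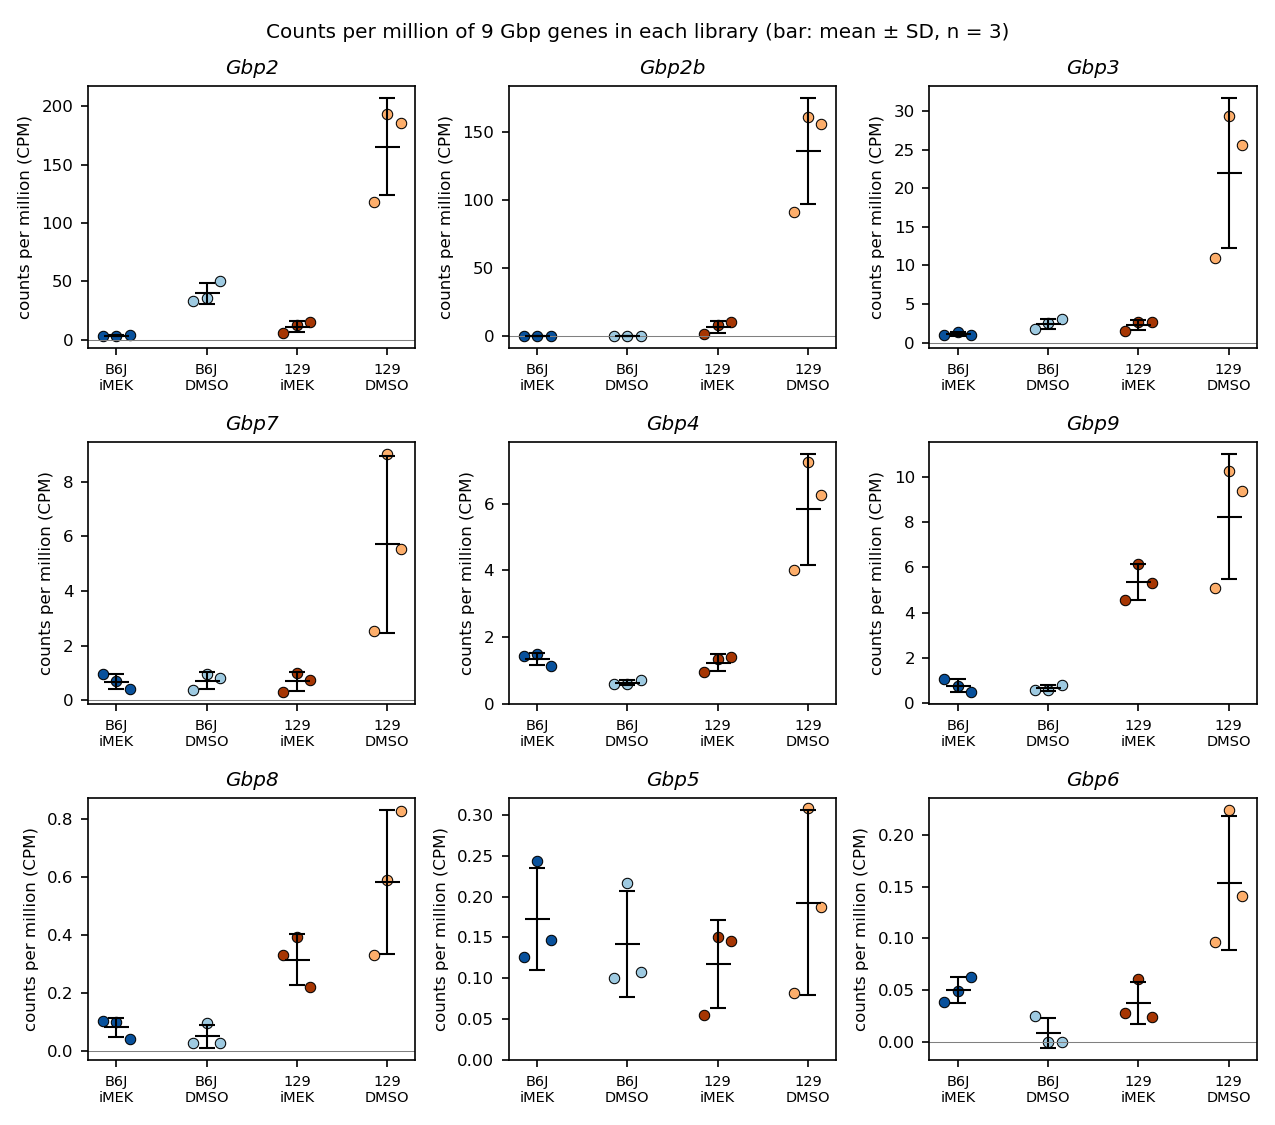
Each panel gives the CPM of 1 gene on its own linear axis, with a point for each library and a bar for the mean ± SD (n = 3) of each group. DMSO-treated 129 cells have the highest mean in all 9 panels, while for Gbp4 inhibitor-treated B6J libraries sit above DMSO-treated B6J libraries, at 1.13 to 1.48 CPM against 0.604 to 0.715 CPM.

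Gbp3, the next gene on the cluster, had 0.962, 1.39 and 0.925 CPM in inhibitor-treated B6J cells against 1.71, 2.56 and 3.04 CPM in DMSO-treated B6J cells. In 129 it had 1.52, 2.63 and 2.68 CPM with the inhibitor against 10.99, 29.4 and 25.7 CPM with DMSO. Neither pair overlapped, and DMSO-treated 129 replicate 1 was well below the other 2 of its group. The log2 fold change was -1.16 (SE 0.37) in B6J and -3.27 (SE 0.38) in 129. The B6J value is the least firm of the calls on the inhibitor: it passed in the fit of all libraries, did not pass in limma-voom at -1.14, and did not pass in 6 of the fits that left out 1 library, at -1.15 to -0.97. Those libraries were replicates 1 and 3 of inhibitor-treated B6J, 2 and 3 of DMSO-treated B6J, and 2 and 3 of inhibitor-treated 129 cells. With the fibroblast markers as a covariate it was -0.45 and did not pass.

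Gbp7, known in mice for a part in macrophage defence against bacteria, was low everywhere except in DMSO-treated 129 cells. It had 0.962, 0.693 and 0.420 CPM in inhibitor-treated B6J cells against 0.378, 0.950 and 0.836 CPM in DMSO-treated B6J cells. It had 0.304, 1.01 and 0.763 CPM in inhibitor-treated 129 cells against 2.55, 9.02 and 5.55 CPM in DMSO-treated 129 cells. The B6J groups overlapped and the 129 groups did not. The log2 fold change was -0.07 (SE 0.55) in B6J and -3.04 (SE 0.56) in 129.

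Gbp4, reported in mouse cells to restrain the factor IRF7, went in opposite directions in the lines. It had 1.43, 1.48 and 1.13 CPM in inhibitor-treated B6J cells against 0.604, 0.614 and 0.715 CPM in DMSO-treated B6J cells. It had 0.953, 1.34 and 1.42 CPM in inhibitor-treated 129 cells against 4.01, 7.25 and 6.26 CPM in DMSO-treated 129 cells. All 3 inhibitor-treated B6J libraries were above, and all 3 inhibitor-treated 129 libraries below, the DMSO libraries of their line. The log2 fold change was 1.06 (SE 0.25) in B6J and -2.24 (SE 0.24) in 129, a difference of 3.30 (SE 0.35). With the inhibitor the lines overlapped, at 0.12 (SE 0.24), while with DMSO B6J was lower by 3.18 (SE 0.26) on the log2 scale.

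Gbp9 followed the line more than the treatment. It had 1.06, 0.754 and 0.504 CPM in inhibitor-treated B6J cells against 0.604, 0.578 and 0.809 CPM in DMSO-treated B6J cells. In 129 it had 4.57, 6.14 and 5.31 CPM with the inhibitor against 5.09, 10.2 and 9.38 CPM with DMSO. Inhibitor and DMSO libraries overlapped in both lines, whereas every B6J library was below every 129 library. The log2 difference of B6J from 129 was -2.79 (SE 0.32) with the inhibitor and -3.63 (SE 0.33) with DMSO. The response to the inhibitor was 0.22 (SE 0.32) in B6J and -0.63 (SE 0.29) in 129, and without DMSO-treated 129 replicate 1 the 129 value was -0.88 and passed the threshold. Over all alternative fits the 129 value ran from -0.88 to 0.23, so its sign was not the same in all of them.

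Gbp8 had the same order at a lower level, from 2 to 53 reads per library. It had 0.101, 0.0973 and 0.0420 CPM in inhibitor-treated B6J cells and 0.0252, 0.0963 and 0.0270 CPM in DMSO-treated B6J cells. In 129 it had 0.331, 0.392 and 0.218 CPM with the inhibitor and 0.329, 0.588 and 0.827 CPM with DMSO. All B6J libraries were below all 129 libraries, with a log2 difference of -1.96 (SE 0.55) with the inhibitor and -3.49 (SE 0.57) with DMSO, the second at -4.39 without DMSO-treated B6J replicate 2. The inhibitor-treated difference passed in the fit of all libraries but not in 5 of the fits that left out 1 inhibitor-treated library, at -2.16 to -1.65. Of its exon words, 18.1% recur in other genes, among them Gbp9 and Gbp4, so part of its reads may have been set aside or placed elsewhere.

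Gbp5, which promotes assembly of the NLRP3 inflammasome in mouse macrophages, and Gbp6 were near the limit of detection. Gbp5 had 10, 20 and 14 reads in inhibitor-treated B6J libraries against 8, 18 and 8 in DMSO-treated B6J libraries, and 4, 10 and 12 reads in inhibitor-treated 129 libraries against 6, 22 and 12 in DMSO-treated 129 libraries. All 4 groups overlapped, and its log2 fold changes lay within 2 SE of 0 in each comparison, so no difference was detectable at this depth. Gbp6 had 3, 4 and 6 reads in inhibitor-treated B6J libraries against 2, 0 and 0 in DMSO-treated B6J libraries, and 2, 4 and 2 reads in inhibitor-treated 129 libraries against 7, 16 and 9 in DMSO-treated 129 libraries. Of the exon words of Gbp6, 70.7% recur in other genes, so these few reads are uncertain.

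Read as a family, 5 of the 8 members tested were lower with the inhibitor in 129 and none higher, where 18.2% of all genes tested were lower and 17.4% higher at an adjusted p under 0.05. These were Gbp2, Gbp2b, Gbp3, Gbp4 and Gbp7. In B6J, of the 7 members with a value, Gbp2 and Gbp3 were lower and Gbp4 higher, where 16.5% of all genes were lower and 14.6% higher. The median log2 fold change of the members was 0.22 over 7 genes in B6J and -2.64 over 8 genes in 129, against 0.00 and -0.01 over all genes. The difference of the responses, B6J minus 129, was above 0 in all 7 members with a value, with a median of 1.53 against 0.00 over all genes, and passed the threshold in Gbp4 alone, where 0.71% of all genes passed as higher and 0.77% as lower. It was 2.98 (SE 0.77) for Gbp7 and 2.11 (SE 0.52) for Gbp3, and both passed without DMSO-treated 129 replicate 1, at 3.33 and 2.44. With the replicate numbers as a block Gbp3 passed as well, at 2.06. Since the family was selected on these counts, nothing is read from these counts of calls.

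Between the lines, 4 of the 8 members were lower in B6J with the inhibitor (Gbp2, Gbp2b, Gbp8 and Gbp9) and none higher, where 9.47% of all genes were lower and 8.9% higher. With DMSO, 7 of the 8, all but Gbp5, were lower in B6J and none higher, where 10.5% of all genes were lower and 10.4% higher. Over the 7 members with a finite value the median log2 difference was -1.06 with the inhibitor and -3.17 with DMSO, against -0.01 over all genes at either treatment. Gbp3 with the inhibitor was at -1.06 (SE 0.37), with B6J below 129 in every library, and passed in the fits without replicate 1 of either 129 group, at -1.28 without the inhibitor-treated one and -1.06 without the DMSO-treated one. It also passed by DESeq2, at -1.06, and in a fit of only the inhibitor-treated groups, at -1.07. Gbp4 and Gbp7, which differed strongly between the lines with DMSO, overlapped with the inhibitor. Comparisons that use the same libraries are not independent of each other.

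**Figure D3:**
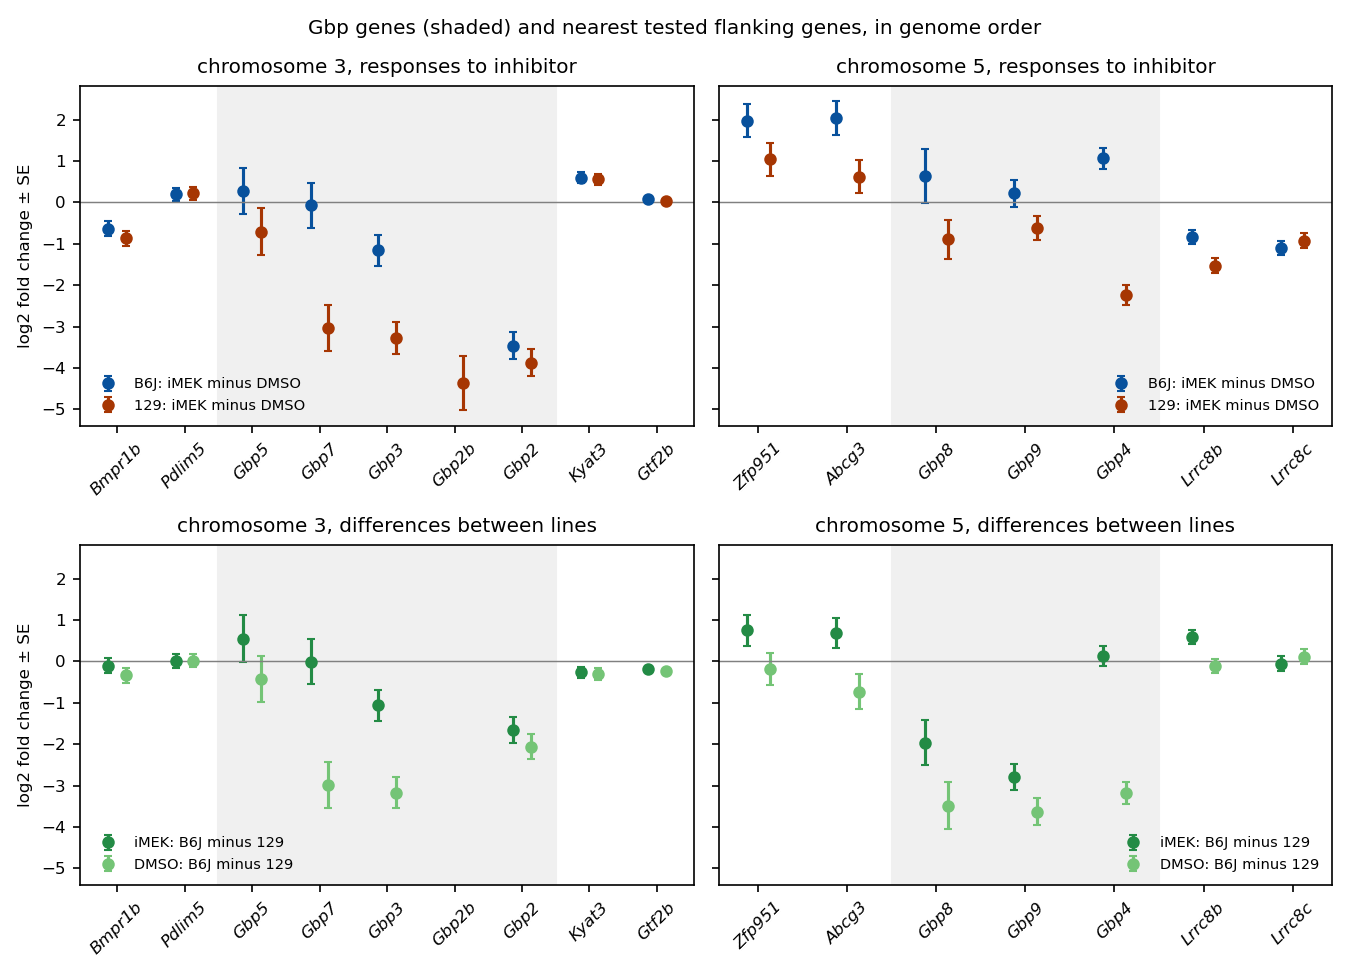
Points give log2 fold changes ± SE of the family (shaded) and of the nearest tested genes on either side, in genome order and not to distance. The upper panels show inhibitor over DMSO in B6J and 129, and the lower panels B6J over 129 with inhibitor and with DMSO. Gbp2b has no finite value in B6J, Gbp6 was not tested, and the flanking genes lie between -0.73 and 0.75 in the lower panels while Gbp genes reach -3.63.

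The genes beside the clusters were looked at after the member values had been seen. On chromosome 3, Pdlim5 differed between B6J and 129 by a log2 value of 0.01 (SE 0.16) with the inhibitor and 0.02 (SE 0.16) with DMSO. Kyat3, on the other side, differed by -0.26 (SE 0.13) and by -0.30 (SE 0.14) in the same comparisons, neither of which passed. On chromosome 5, Abcg3 differed by 0.69 (SE 0.37) with the inhibitor and by -0.73 (SE 0.42) with DMSO, neither of which passed. Of the 8 flanking genes, 2 did differ between the lines: Gtf2b was lower in B6J with DMSO, at -0.24 (adjusted p = 0.0188), and Lrrc8b was higher in B6J with the inhibitor, at 0.58 (adjusted p = 0.0385). Both calls were lost in several fits that left out 1 library. The flanks were not still under the inhibitor. Kyat3 rose in B6J by 0.60 (adjusted p = 0.00553) and in 129 by 0.56 (adjusted p = 0.00739), and Lrrc8c fell in B6J, at -1.10 (adjusted p = 0.000833), and in 129, at -0.92 (adjusted p = 0.00236). Lrrc8b and Bmpr1b were also called lower in both lines, at -0.83 and -0.64 in B6J and -1.53 and -0.87 in 129. Abcg3 and Zfp951 were called higher in B6J only, at 2.04 (SE 0.40) and 1.97 (SE 0.40), against 0.62 (SE 0.40) and 1.04 (SE 0.39) in 129. The difference of the responses was called in no flanking gene.

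Genes of the interferon pathway were described from lists. No interferon ligand was measurable: the 10 ligand genes in the table had 9 reads in all over the 12 libraries, with 0 for Ifng and Ifnb1 in every library. Of 24 genes of interferon receptors and signalling, all tested, 5 were higher and 2 lower with the inhibitor in B6J, and 5 higher and 4 lower in 129. Over all genes the shares were 14.6% higher and 16.5% lower in B6J, and 17.4% higher and 18.2% lower in 129. Irf1, the factor that binds ISRE letters, fell in 129 to 28.6 ± 1.14 CPM with the inhibitor, against 75.0 ± 23.1 CPM with DMSO, a log2 fold change of -1.39 (SE 0.19, adjusted p = 0.000183). Its B6J levels were 26.8 ± 2.50 CPM with the inhibitor and 37.7 ± 2.01 CPM with DMSO, a log2 fold change of -0.49 (SE 0.18) that was not called. The difference of the Irf1 responses, B6J minus 129, was 0.90 (SE 0.26) and was not called either. Between the lines with DMSO, Irf1 was lower in B6J, at -0.99 (adjusted p = 0.00277), among 5 lower and 1 higher of the 24. With the inhibitor 1 was lower, Socs3, and none higher, and Socs3 did not pass without inhibitor-treated replicate 1 or 2 of either line. The shares of all genes between the lines were 10.5% lower and 10.4% higher with DMSO, and 9.47% lower and 8.9% higher with the inhibitor. When 1 library was left out, the count of 5 higher in 129 became 2 to 8 (8 without DMSO-treated 129 replicate 1), and the count of 5 lower between the lines became 2 to 6 (2 without DMSO-treated B6J replicate 3).

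The immunity-related GTPases, partners of the family at pathogen vacuoles, had more members lower with the inhibitor in 129 than in B6J, a difference tested only gene by gene. Of 9 tested, 2 were higher and 1 lower with the inhibitor in B6J, with a list median of 0.18, and 1 was higher and 4 were lower in 129, with a list median of -0.84. The shares over all genes were 14.6% higher and 16.5% lower in B6J, and 17.4% higher and 18.2% lower in 129. The difference of the responses passed in 1 of the 9, Iigp1, a call lost in most fits that left out 1 library, in limma-voom and with the replicate block. In each fit that left out 1 library 4 were again lower in 129, whereas the single lower call in B6J, Irgm1, was lost in most such fits. Igtp fell in 129 to 2.73 ± 0.356 CPM with the inhibitor, against 11.8 ± 5.63 CPM with DMSO (log2 fold change -2.11, adjusted p = 0.000424). Irgm2 fell in 129 to 5.74 ± 0.307 CPM with the inhibitor, against 15.4 ± 6.44 CPM with DMSO (-1.42, adjusted p = 0.00167), and with the fibroblast covariate it was at -0.72 and did not pass. Irgm1, a regulator of the other immunity-related GTPases, fell in 129 to 27.5 ± 3.78 CPM with the inhibitor, against 57.8 ± 8.54 CPM with DMSO (-1.07, adjusted p = 0.000186). With DMSO, 6 of the 9 were lower in B6J and none higher, with a list median of -1.77, and with the inhibitor 1 was lower, Tgtp1. Over all genes, 10.5% were lower and 10.4% higher in B6J with DMSO, and 9.47% lower and 8.9% higher with the inhibitor.

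Of 40 other interferon-stimulated genes tested, 10 were higher and 11 lower with the inhibitor in B6J. In 129, 10 were higher and 18 lower. The shares over all genes were 14.6% higher and 16.5% lower in B6J, and 17.4% higher and 18.2% lower in 129. Genes of the list thus moved in both directions in each line. Without inhibitor-treated B6J replicate 2, 7 were lower in B6J. Psmb8, a subunit of the immunoproteasome, fell in B6J to 0.451 ± 0.147 CPM with the inhibitor, against 3.12 ± 0.530 CPM with DMSO (-2.77, adjusted p = 0.000229). In 129 it fell to 1.22 ± 0.446 CPM with the inhibitor, against 20.2 ± 7.99 CPM with DMSO (-4.04, adjusted p = 1.49e-05). Oasl2 fell in both lines as well, at -2.04 (adjusted p = 0.000115) in B6J and -2.70 (adjusted p = 1.7e-05) in 129. Oas1a, a sensor of double-stranded RNA, rose in B6J to 4.65 ± 0.373 CPM with the inhibitor, against 1.40 ± 0.487 CPM with DMSO (1.73, adjusted p = 0.000501). It rose in 129 as well, to 8.78 ± 1.96 CPM with the inhibitor, against 4.70 ± 1.05 CPM with DMSO (0.90, adjusted p = 0.0176).

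Between the lines, 23 of the same 40 genes were lower in B6J with DMSO and 1 higher, with a list median of -0.70. With the inhibitor 7 were lower and 1 higher, with a list median of -0.21, and when 1 library was left out the 7 became 4 to 9. Over all genes, 10.5% were lower and 10.4% higher in B6J with DMSO, and 9.47% lower and 8.9% higher with the inhibitor. Xaf1, a pro-apoptotic interferon target, kept its difference at both treatments, with 9.17 ± 0.841 CPM in B6J against 39.7 ± 2.49 CPM in 129 with the inhibitor (-2.12, adjusted p = 1.27e-07) and 2.78 ± 0.178 CPM in B6J against 16.2 ± 1.09 CPM in 129 with DMSO (-2.54, adjusted p = 4.69e-08).

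**Figure D4:**
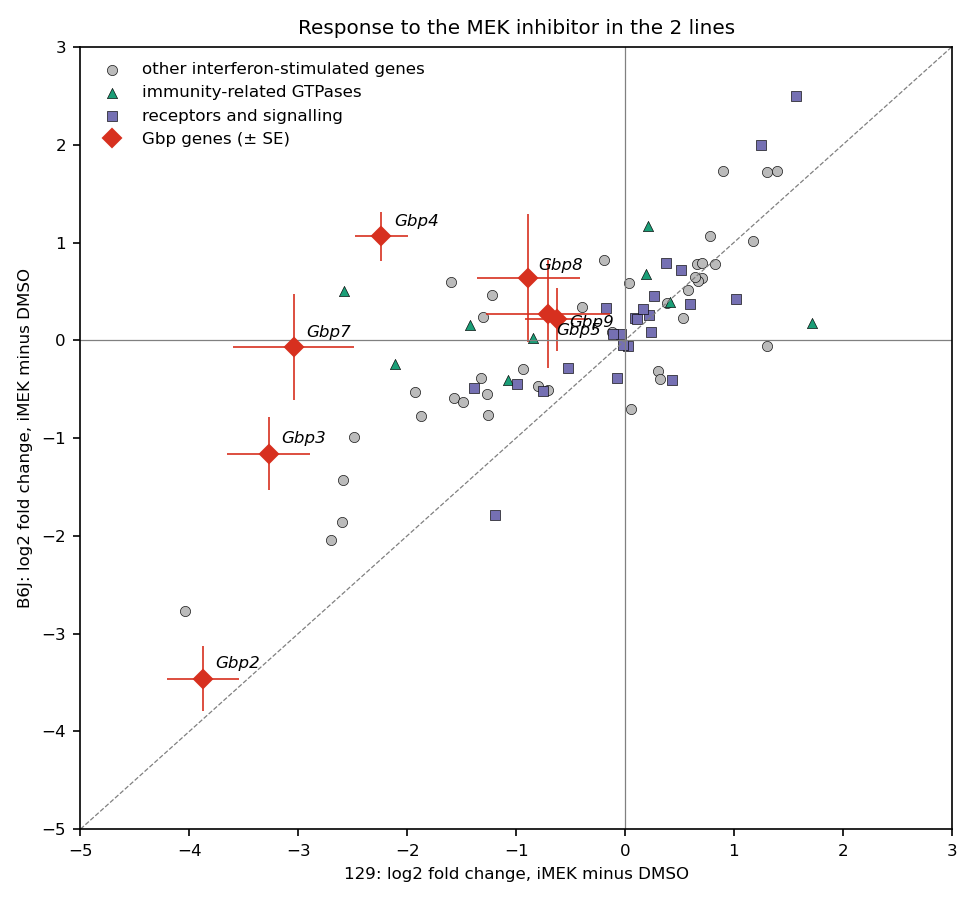
Each point is a gene, with the log2 fold change of inhibitor over DMSO in 129 on the horizontal axis and in B6J on the vertical axis. Dashed line, equal responses; diamonds, 7 Gbp genes with ± SE; other symbols, tested genes of 3 interferon lists. All 7 Gbp genes lie above the dashed line, and Gbp4 lies at 1.06 in B6J and -2.24 in 129.

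Genes that prenylate or assist the proteins were also described. Of 17 partners in cell-autonomous defence, such as ATG8-conjugation and inflammasome genes, 5 were higher and 2 lower with the inhibitor in B6J. In 129, 5 were higher and 1 lower. The shares over all genes were 14.6% higher and 16.5% lower in B6J, and 17.4% higher and 18.2% lower in 129. When 1 library was left out, the 2 lower in B6J became 0 to 3 and the 5 higher in 129 became 3 to 6. Gabarapl2, an ATG8 family protein, rose in B6J to 71.7 ± 2.16 CPM with the inhibitor, against 33.3 ± 3.66 CPM with DMSO (1.11, adjusted p = 4.8e-05), and in 129 to 89.4 ± 6.45 CPM with the inhibitor, against 37.1 ± 6.29 CPM with DMSO (1.27, adjusted p = 1.78e-05). Fntb, a farnesyltransferase subunit, rose by 0.74 in B6J (adjusted p = 1.46e-05) and by 0.83 in 129 (adjusted p = 6.82e-06). It was 1 of 6 prenylation genes, of which 1 was higher in B6J, 2 were higher in 129 and none lower. The other call in 129, Fnta at 0.21, was lost without inhibitor-treated 129 replicate 1 or 3, or without DMSO-treated 129 replicate 2 or 3. Pggt1b, also of this list, was not called, at 0.19 in B6J and 0.11 in 129. Which of these enzymes serve which members was not examined. Of 3 other dynamin-related GTPases tested, Atl2 fell in B6J, at -0.67 (adjusted p = 2.29e-05), and in 129, at -0.70 (adjusted p = 1.55e-05), and 1 was higher in each line, Atl3. The 129 call of Atl3, at 0.23, was lost without DMSO-treated 129 replicate 2 or 3, or without inhibitor-treated 129 replicate 3.

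Over the 12 libraries, the 5 genes whose log2 CPM most resembled the mean standardised profile of the 8 tested members were Parp14, Thsd7a, Irgm2, Wdr17 and Mettl8, with Pearson's r of 0.972, 0.960, 0.956, 0.948 and 0.947 and Spearman's rho of 0.846, 0.860, 0.804, 0.937 and 0.881. These values are descriptive, since the libraries fall into 4 groups and the genes share the library and its depth at every point. Parp14 averaged 4.19 ± 0.729 CPM in inhibitor-treated B6J, 6.03 ± 0.337 CPM in DMSO-treated B6J, 7.51 ± 2.15 CPM in inhibitor-treated 129 and 28.5 ± 9.18 CPM in DMSO-treated 129 cells. Among the members themselves, Gbp3 lay closest to the family profile (r = 0.953) and Gbp5 farthest (r = 0.420). Each member is part of that profile, which raises its r, so these values do not compare with those of outside genes. Gbp2b tracked Gbp9 (r = 0.961) and Gbp8 (r = 0.912), all of them separated by line, more than its neighbour Gbp2 (r = 0.636).

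Marker levels moved with the treatment beside the family. Of the 20 fibroblast markers, 11 were higher and none lower with the inhibitor in B6J, and 12 higher and 1 lower in 129, with none at 0 in any library. Over all genes, 14.6% were higher and 16.5% lower in B6J, and 17.4% higher and 18.2% lower in 129. The summed level of 10 blood-cell markers was 157.2 to 169 CPM in inhibitor-treated B6J and 57.4 to 76.5 CPM in DMSO-treated B6J libraries, and 153.1 to 155.2 CPM in inhibitor-treated 129 and 49.9 to 61.9 CPM in DMSO-treated 129 libraries. Of 8 primitive endoderm markers, 5 were lower with the inhibitor in 129 and 1 in B6J. Between the lines with DMSO, 3 were lower and 1 higher in B6J than in 129. In that last comparison 10.5% of all genes were lower and 10.4% higher. The list median of these markers was -2.73 for the inhibitor in 129 and -2.88 between the lines with DMSO. Their summed level was 39.8 to 54.1 CPM in inhibitor-treated B6J, 39.7 to 43.1 CPM in DMSO-treated B6J, 44.8 to 74.5 CPM in inhibitor-treated 129 and 44.1 to 523.5 CPM in DMSO-treated 129 libraries, the highest being replicate 1, in which the family sum was the lowest of its group. In 129 replicates 2 and 3 the marker sum was 44.8 and 47.5 CPM with the inhibitor against 44.1 and 45.4 CPM with DMSO. It was thus not lower with the inhibitor there, although the markers' mean log2 of CPM plus 1 was, at 1.64 and 1.62 against 2.07 and 2.06. The family sum in these libraries was 32.9 and 35.7 CPM with the inhibitor against 411.5 and 389.5 CPM with DMSO. Most of the blood-cell sum was Laptm5, while the leukocyte gene Ptprc averaged 0.156 CPM in inhibitor-treated B6J and 0.180 CPM in inhibitor-treated 129 cells. Within each line, the fibroblast and blood-cell sums were higher with the inhibitor, where the family sum was lower. With the fibroblast markers as a covariate, the log2 fold change with the inhibitor was -2.94 for Gbp2 in B6J, and in 129 it was -3.24 for Gbp2, -3.37 for Gbp2b, -2.28 for Gbp3, -1.70 for Gbp7 and -1.61 for Gbp4, all of them still called. In B6J, Gbp4 was still called higher, at 1.53, Gbp3 was no longer called, and Gbp9 was called higher, at 0.81. Without both 129 libraries numbered 1, a setting chosen after seeing the data, the same 5 members were called lower in 129 and Gbp9 was added at -0.78. This Gbp9 response ran up to 0.23 in the alternative fits.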

How the data were processed

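Stranded poly(A) RNA-seq gave 12 libraries (4 groups of 3), and the deposited table gives the authors' raw read counts per gene. Per the submitters' processing notes, STAR 2.7.10, SAMtools, HTSeq 0.6.1p1 and DESeq were used, with build mm10 (GRCm38). The strand setting, annotation and treatment of reads that match several genes were not stated in any source used here. Of the values from 1 to 20, 70.1 to 73.4% per library were even, against 52.1 to 55.2% of those from 101 to 1000, so an alternative halved the counts.

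Counts were fitted with edgeR 4.0.16 (R 4.3.3): filterByExpr with a minimum count of 10 and a minimum total of 15, TMM scaling, 4 group means and a quasi-likelihood test of each of 5 contrasts, with Benjamini-Hochberg adjustment over all 16627 genes and calls under 0.05. CPM are TMM-scaled counts per 1000000 reads, and CPM per kb divide them by the union of GENCODE exons. Alternatives were RLE scaling, DESeq2 1.42.0, limma-voom (limma 3.58.1), no filter, a minimum count of 50, each library left out, only the groups of a contrast, a replicate block and a fibroblast-marker covariate. The members and the gene lists were chosen with earlier results of these data known. Named list genes were at most 4 per list and contrast, the called ones of largest change with at least 1 CPM in the higher group; levels in the other line and, where given, other contrasts of these genes are shown beside them.

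Same-numbered inhibitor and DMSO libraries of 129 deviated together from their group means (r = 0.442, 0.295 and 0.222). In B6J r was -0.188, 0.088 and -0.170. Libraries of unlike number were not compared in this way, and the labels state no pairing. Whether the numbers pair libraries was therefore not tested. The p-values measure only the spread between libraries, which may be technical. No molecular identifiers are described in the labels, so the floor of 3 counts covers counting error only. The values of 1 gene of a list are not reported here.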

Additional observations from a re-analysis of the deposited data

Results flagged for a closer look

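The response to the inhibitor differed between the lines, B6J minus 129, by a log2 value of 3.30 for Gbp4, which kept this call in every alternative fit, at 3.11 to 3.51. The family was selected on these same counts, so this call is a description. The alternative fits reuse the same libraries and are no independent support for it. The other 3 genes of the lists whose difference of the responses passed the threshold were Iigp1 at 3.08 (adjusted p = 0.0348), Tap2 at 1.49 (adjusted p = 0.0402) and Psme2 at 0.93 (adjusted p = 0.0364), all by edgeR's quasi-likelihood test. Iigp1, a vacuole-attacking GTPase, averaged 0.313 ± 0.211 CPM in inhibitor-treated B6J against 0.219 ± 0.0689 CPM in DMSO-treated B6J cells, and 0.456 ± 0.129 CPM in inhibitor-treated 129 against 2.73 ± 0.679 CPM in DMSO-treated 129 cells (SD, n = 3 each). Tap2, a subunit of the peptide transporter, averaged 2.64 ± 0.301 CPM in inhibitor-treated B6J against 5.26 ± 0.310 CPM in DMSO-treated B6J cells, and 2.49 ± 0.373 CPM in inhibitor-treated 129 against 13.9 ± 4.38 CPM in DMSO-treated 129 cells. Psme2, a proteasome activator subunit, averaged 36.8 ± 0.369 CPM in inhibitor-treated B6J against 48.2 ± 5.47 CPM in DMSO-treated B6J cells, and 43.3 ± 2.74 CPM in inhibitor-treated 129 against 108 ± 21.4 CPM in DMSO-treated 129 cells. These 3 calls did not pass in limma-voom or with the replicate block, nor without most single libraries, so they depended on the fit and on the libraries used. Among the 40 other interferon-stimulated genes, the 2 calls of this kind became 0 to 13 when 1 library was left out, 13 without DMSO-treated 129 replicate 1.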

How the results depend on the processing

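For 36 log2 fold changes of members, 775 alternative values were computed: none reversed a called direction, 16 moved beyond the spread between replicates, and 759 stayed within it. Of the 393 alternatives of called values, 380 were still called. Of the 16, 13 came with the fibroblast covariate, which itself moves with the treatment, and 3 were Gbp8 without DMSO-treated B6J replicate 2. Leaving out 1 library, the members called numbered 2 to 3 for the inhibitor in B6J, 5 to 6 in 129, 1 to 3 for the difference of the responses, and, for B6J against 129, 3 to 5 with the inhibitor and 7 to 7 with DMSO. For the difference of the responses, 1 member was called in the fit of all libraries, 3 by DESeq2, 2 with the replicate block, 3 with the fibroblast covariate, and 3 without both 129 libraries numbered 1; the cause was not tested. Over all genes that difference gave 246 calls, against 798 by DESeq2, 163 by limma-voom, 853 with the covariate, 608 without both 129 libraries numbered 1 and 78 to 590 without 1 library. The replicate block changed no other count of member calls by over 1.5 times. Between the lines, same-numbered libraries did not deviate together with the inhibitor (r = -0.32, 0.016 and -0.094). There a block on the replicate numbers gave Gbp3 a call with the inhibitor, at -1.02. It took the call of Socs3, at -0.35 (adjusted p = 0.059). Of 1308 alternative counts of calls in the lists, 186 were beyond 1.5 times the count reported. Gabarap in 129 reversed with the fibroblast covariate, at -0.007 (adjusted p = 0.966). A fit of only the groups of a contrast does not apply to the difference of the responses, and Gbp2b gives no value where B6J is at 0. Depth limits Gbp5, Gbp6 and Gbp8, with at most 53 reads per library.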
